A study of Mus musculus with 2 samples.

Results

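T cells were present in 2 droplet RNA libraries that had been sorted for endothelium from mouse liver. They were chosen by measured transcript counts alone. A barcode was taken as a T cell where it held at least 2 UMIs (unique molecular identifiers, each standing for 1 captured transcript) of Cd3e, Cd3d and Cd3g together, the invariant signalling chains of the T cell receptor. Barcodes with 0.3% or more of UMIs from the sinusoidal endothelial genes Stab1, Stab2, Clec4g and Dnase1l3, or 0.2% or more from the macrophage genes C1qa, C1qb and C1qc, were left out. The rule gave 418 T cells among 12830 barcodes that passed the depth limits (500 UMIs and 300 genes or more, mitochondrial share below 20%). Of these, 202 came from the cirrhosis library and 216 from the control library.

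The cirrhosis mice inhaled vaporized carbon tetrachloride, a toxin that injures hepatocytes, for 12 weeks, and the control group carried the label Control. Both groups were C57BL/6 mice aged 16 weeks with the genotype Cdh5-Cre+, mTmG +/+. Cdh5-Cre is a recombinase under an endothelial promoter, and mTmG switches a cell and its descendants from membrane tdTomato to membrane GFP once recombined. Each group was a pool of non-parenchymal cells from 3 mice, sorted as live and GFP-positive, and each pool gave 1 library. There was therefore no replicate in either group and no test was made. Intervals are exact 95% intervals and cover counting error only, not the difference between mice or preparations. Those of log2 ratios also leave out the spread between cells.

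The T cell receptor is either an alpha-beta pair, as on Cd4 helper and Cd8 cytotoxic cells, or a gamma-delta pair. The liver is known for many innate-like T cells, among them NKT cells and other T cells that carry NK receptors, which release interferon-gamma and kill without prior priming. A further gamma-delta population makes interleukin 17 and is known from skin, mucosa and inflamed liver.

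The T cells held a median of 6081 UMIs and 2231 genes in cirrhosis and 6464.5 UMIs and 2341.5 genes in control, and 1838631 and 1653700 UMIs in all. The libraries shared 17 barcodes, and no T cell barcode was a T cell in both. At least 1 UMI of Trac, Trbc1 or Trbc2, the constant regions of the alpha and beta chains, was present in 201 of the 202 T cells in cirrhosis and 215 of the 216 in control. Of 720 and 2564 sinusoidal endothelial barcodes (1% or more of UMIs from the 4 endothelial genes), 1.25% and 2.73% had such a UMI. NK-type barcodes held 2 UMIs or more of the NK receptor genes Ncr1, Klrb1c and Klre1 and no CD3 UMI. Of these, 71 of 73 in cirrhosis and 29 of 30 in control had one as well. A UMI of Trac, Trbc1 or Trbc2 therefore set T cells apart from endothelium but not from NK-type barcodes. Trac itself was in 79.2% of T cells in cirrhosis and 82.4% in control, against 6.85% and 13.3% of NK-type barcodes. All 12 T cell markers that were listed had UMIs in both libraries. The CD3 genes of the rule are among them, and sinusoidal endothelial barcodes of control also had UMIs of all 12. Values of the rule's own genes describe the choice and are no result. The T cells held a median of 17.5 CD3 UMIs in cirrhosis and 22 in control. Only 3 and 6 of them lay at exactly 2 CD3 UMIs, and 21 and 15 further barcodes with 1 CD3 UMI met the other limits. With the CD3 limit met, 8 and 6 T cells had 0.2 to 0.3% endothelial UMIs, just inside that limit, and 11 and 6 barcodes had 0.3 to 0.4%, just outside it. For the C1q limit, 6 and 3 T cells had 0.1 to 0.2%, and 1 barcode in each library had 0.2 to 0.3%.

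Endothelium and hepatocyte transcripts were also present in T cell barcodes. The summed level of the 10 hepatocyte markers was 3714 CPM (counts scaled to a total of 1000000 UMIs) in cirrhosis and 983 CPM in control, and that of 8 general endothelial markers was 1359 CPM and 412 CPM. UMIs from the markers of other cell types made up 0.5% or more of 46 T cells in cirrhosis (22.8%) and 25 in control (11.6%). Barcodes over 20000 UMIs numbered 21 and 4, of which 18 and 3 lay above that limit. The list medians and several of the values below are also given for the 156 cirrhosis and 191 control T cells under 0.5%, called the stricter set, a limit set after these values were seen. In it the hepatocyte markers came to 299 CPM and 231 CPM, and the general endothelial markers to 168 CPM and 174 CPM. One control barcode of 56597 UMIs, 83.1% of them immunoglobulin, met the T cell rule and was outside the stricter set.

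**Figure D1:**
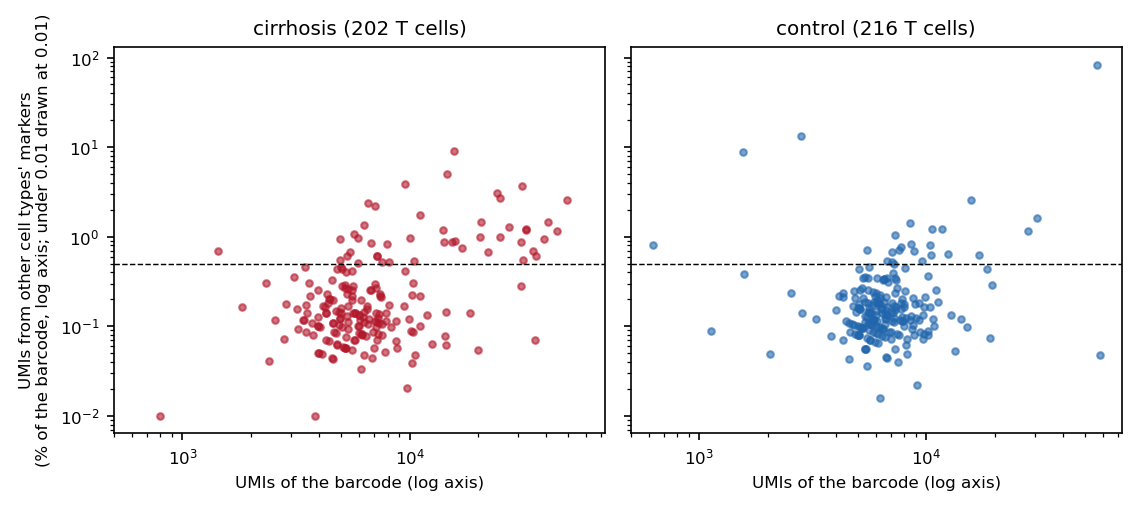
Each point is 1 T cell barcode, cirrhosis left and control right, with its UMIs on the x axis and the percent of them from other cell types' markers on the y axis (both log axes). The dashed line marks 0.5%, which 46 cirrhosis and 25 control barcodes reached, among them 18 of the 21 and 3 of the 4 barcodes over 20000 UMIs.

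The reporter transcripts set T cells apart from endothelium. tdTomato stood at 77.2 CPM in T cells of cirrhosis and 88.9 CPM in those of control, while sinusoidal endothelial barcodes had 0.622 CPM and 0.728 CPM. The eGFP of the reporter stood at 473 CPM and 242 CPM in T cells against 1517 CPM and 1714 CPM in sinusoidal endothelium. In the stricter set it was 152 CPM in cirrhosis and 156 CPM in control, and 24.4% and 31.4% of those T cells held an eGFP UMI. Whether eGFP UMIs in T cells came from the cells or from free RNA was not tested.

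T cells were 2.64% of barcodes in cirrhosis (202 of 7662, interval 2.29 to 3.02%) and 4.18% in control (216 of 5168, interval 3.65 to 4.76%). The stricter set gave 2.04% and 3.70%. Since the sort was for GFP, these shares do not measure T cells of the liver. A further 35 and 92 barcodes had 2 CD3 UMIs or more together with 0.3% or more endothelial UMIs, at medians of 18190 and 16751 UMIs, and were not counted. NK-type barcodes, with the NK receptor genes Ncr1, Klrb1c and Klre1 and no CD3 UMI, were 0.953% (73 barcodes) in cirrhosis and 0.58% (30 barcodes) in control, with intervals of 0.748 to 1.20% and 0.392 to 0.828% that overlapped.

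Cells with Cd8 transcripts took a larger share of the T cells in cirrhosis under each definition below, while the Cd4 share depended on the definition. Cells with UMIs of the coreceptor Cd4 alone were 33 of 202 in cirrhosis (16.3%, interval 11.5 to 22.2%) and 12 of 216 in control (5.56%, interval 2.90 to 9.50%). Cells with Cd8a or Cd8b1 alone were 39 (19.3%, interval 14.1 to 25.4%) and 13 (6.02%, interval 3.24 to 10.1%). Neither pair of intervals overlapped under this definition. Cells with UMIs of Trdc, Tcrg-C1 or Tcrg-C2 alone, the constant regions of the delta and gamma chains, were 70 (34.7%, interval 28.1 to 41.7%) and 79 (36.6%, interval 30.1 to 43.4%), which overlapped. None of the 3 sums was seen in 27 cells in cirrhosis (13.4%) and 65 in control (30.1%). In sinusoidal endothelial barcodes, at medians of 8945 and 7141 UMIs, the Cd4, Cd8 and gamma-delta patterns took 0%, 0.694% and 0.278% in cirrhosis and 0.273%, 0.351% and 0.78% in control. Thinned to 3000 UMIs per cell, which left out 8 cells of each library, the Cd4 pattern was 11.9% in cirrhosis and 2.88% in control. Thinned to 1000 UMIs it was 4.98% (interval 2.41 to 8.96%) and 3.72% (interval 1.62 to 7.20%), which overlapped. Any Cd4 UMI, whatever else the cell held, was in 47 T cells of cirrhosis (23.3%, interval 17.6 to 29.7%) and 40 of control (18.5%, interval 13.6 to 24.4%), which overlapped as well. Any Cd8a or Cd8b1 UMI was in 65 (32.2%, interval 25.8 to 39.1%) and 32 (14.8%, interval 10.4 to 20.3%), which did not overlap.

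The gamma chain transcripts did not mark gamma-delta cells alone. Of T cells with a Tcrg-C1 or Tcrg-C2 UMI and no Trdc UMI, 44 of 45 in cirrhosis and 102 of 104 in control held Trac. The genes of this locus are near-identical in part, so the division of reads between Tcrg-C1, Tcrg-C2 and Tcrg-C4 is uncertain. Trdc itself was in 52 T cells of cirrhosis (25.7%, interval 19.9 to 32.3%) and 22 of control (10.2%, interval 6.49 to 15.01%), and thinned to 3000 UMIs in 23.7% and 10.6%. In the stricter set the shares were 24.4% and 10.5%. In sinusoidal endothelial barcodes Trdc was in 0.139% and 0.234%. In NK-type barcodes, which held no CD3 UMI, it was in 9 of 73 in cirrhosis (12.3%) and 9 of 30 in control (30.0%). Trac was in 19 of the 52 T cells with Trdc in cirrhosis and 7 of the 22 in control. A Trdc UMI therefore does not by itself show that a cell is a gamma-delta cell. With gamma-delta cells set by Trdc alone, those without a coreceptor were 22.3% in cirrhosis and 6.94% in control. Under that definition the Cd4 pattern was 19.8% (interval 14.5 to 26.0%) and 18.1% (interval 13.2 to 23.8%), which overlapped, and the Cd8 pattern 25.7% (interval 19.9 to 32.3%) and 12.0% (interval 8.02 to 17.1%), which did not. Variable segments are rarely read in 3' libraries, and all 176 rows for them together held 198 UMIs in cirrhosis and 153 in control. Of the delta segments, Trdv4 held 51 UMIs in 20 T cells of cirrhosis and 6 UMIs in 6 T cells of control. It was also in 6 of 73 NK-type barcodes of cirrhosis and 6 of 30 of control. Tcrg-V6 had 10 UMIs and 0 UMIs, Trgv2 had 31 and 67, and Trav11, the alpha segment of invariant mouse NKT receptors, had 0 and 8.

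**Figure D2:**
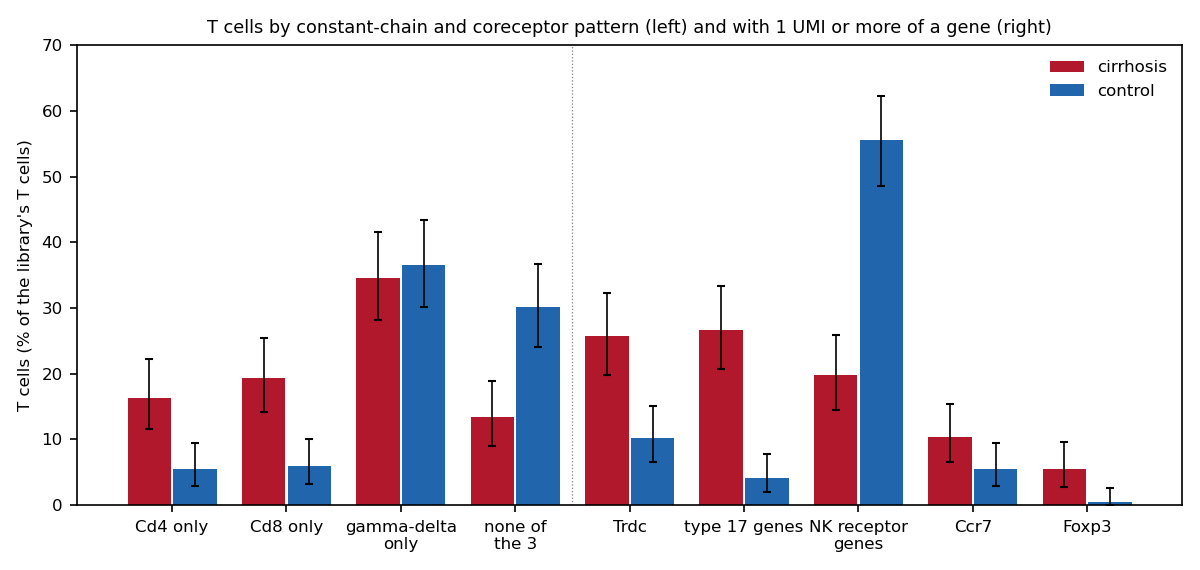
Bars give the percent of the library's T cells (y axis) with each exclusive pattern, left of the dotted line, and with at least 1 UMI of a gene or gene sum, right of it. Red is cirrhosis (202 cells), blue is control (216 cells), and bars carry exact 95% binomial intervals. Cells with NK receptor genes stand at 19.8% in cirrhosis and 55.6% in control, and cells with Trdc at 25.7% and 10.2%.

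NK receptors and the type 17 genes divided the 2 libraries in opposite directions. At least 1 UMI of the NK receptor genes Ncr1, Klrb1c (NK1.1) and Klre1 was in 40 T cells of cirrhosis (19.8%, interval 14.5 to 26.0%) and 120 of control (55.6%, interval 48.7 to 62.3%), and thinned to 3000 UMIs in 16.5% and 48.6%, against 0.139% and 0.975% of sinusoidal endothelial barcodes. At least 1 UMI of Il23r (the interleukin 23 receptor), Blk (a tyrosine kinase), Sox13 or Cd163l1 (a scavenger receptor of mouse interleukin 17 gamma-delta cells) was in 54 (26.7%, interval 20.8 to 33.4%) and 9 (4.17%, interval 1.92 to 7.76%). Sinusoidal endothelial barcodes had such a UMI in 7.22% and 6.67%, nearly all of it from Sox13, with UMIs in 7.08% and 6.51% of them. Blk, which was in 0.139% and 0.0780% of endothelial barcodes, was in 39 T cells of cirrhosis (19.3%) and 8 of control (3.70%). The 4 genes summed to 225 CPM in T cells of cirrhosis and 32.0 CPM in those of control against 8.40 CPM and 8.97 CPM in endothelium. Thinned to 3000 UMIs the shares of T cells were 19.6% and 3.85%, and in the stricter set 21.8% and 2.62%.

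The type 17 list was higher in cirrhosis over all T cells, but its genes were split in cells with Cd4 alone, as given below. Of its 17 genes, 12 had a mean of 20 CPM, all 12 were higher in cirrhosis and 9 were 2-fold higher or more. The mean was over both libraries, and Cd163l1, Serpinb1a, Aqp3 and Blk reached it through cirrhosis alone, with under 20 CPM in control. Their place among the measured genes is therefore no support for the direction. Over all 6396 features at that mean, 8.86% were 2-fold higher and 2.52% 2-fold lower, and over the 5892 of the stricter set 2.65% and 2.73%. The median log2 ratio of cirrhosis over control was 1.86 in all T cells and 2.12 in the stricter set, beside 0.08 and -0.02 over all features. Cd163l1 had 139 CPM in cirrhosis and 12.1 CPM in control, a log2 ratio of 3.53 (interval 2.87 to 4.26), and 60% of its 20 control UMIs came from 1 barcode. Serpinb1a, a protease inhibitor, had 87.6 CPM and 16.9 CPM, and Aqp3, a water and glycerol channel, had 40.8 CPM and 8.47 CPM. Blk had 53.3 CPM and 13.9 CPM. Each of these genes was higher in cirrhosis in the stricter set as well, and without barcodes holding NK receptor UMIs the log2 ratios were 2.59 for Cd163l1, 1.61 for Serpinb1a, 1.30 for Aqp3 and 0.98 for Blk. Il17a itself did not follow them by level, with 85 UMIs in cirrhosis and 66 in control (46.2 CPM and 39.9 CPM), 40% and 37.9% of them in 1 barcode each, yet Il17a or Il17f was seen in 23 T cells of cirrhosis (11.4%) and 5 of control (2.31%). Il18r1 and Tmem176a, which other cells also express, had 166 CPM and 44.7 CPM, and 396 CPM and 108 CPM.

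T cells with Trdc carried other transcripts in cirrhosis than in control. In cirrhosis, 38 of 52 (73.1%) held a UMI of these 4 type 17 genes and 8 (15.4%) an NK receptor UMI, whereas in control 3 of 22 (13.6%) held type 17 genes and 16 (72.7%) an NK receptor. Cd163l1 was in 29 and 2 of these cells, at 512 CPM in cirrhosis and 132 CPM in control. Ccr2, a chemokine receptor that draws cells to inflamed tissue, had 599 CPM and 265 CPM, a log2 ratio of 1.18 (interval 0.70 to 1.69). Nkg7, a granule protein, was in 12 and 18 of them, at 418 CPM and 1482 CPM. Xcl1, a chemokine for cross-presenting dendritic cells, had 56.3 CPM and 1435 CPM, with a log2 ratio of -4.67 (interval -5.30 to -4.10). Ifng had 6 UMIs in cirrhosis and 34 in control. The summed cytotoxic effector list came to 4598 CPM and 16180 CPM, and in the stricter set to 6426 CPM and 18197 CPM. Il17a had 60 UMIs in 13 cells of cirrhosis and 33 UMIs in 2 cells of control. The rule uses Trdc only to group these cells, and the 52 and 22 cells come from 1 pool of mice each. Trac was in 19 and 7 of them, and NK-type barcodes also held Trdc, so not all need be gamma-delta cells.

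Cytotoxic genes were lower in cirrhosis. Of 23 listed genes, 18 had a mean of 20 CPM, 17 were lower and 11 were 2-fold lower or more, with a median log2 ratio of -1.07. In the stricter set, 5 of 20 were 2-fold lower, 3 were 2-fold higher and the median was -0.61. Over all features at that mean, 2.52% were 2-fold lower and 8.86% 2-fold higher, and in the stricter set 2.73% and 2.65%. Ccl4, a chemokine released on activation, had 63.1 CPM in cirrhosis and 555 CPM in control, a log2 ratio of -3.14 (interval -3.43 to -2.86). Gzmb, the granule protease granzyme B, had 177 CPM and 692 CPM, and was in 15.8% and 41.7% of T cells. Of its cirrhosis UMIs, 31.3% came from 1 barcode. Without barcodes holding NK receptor UMIs, Ccl4 had 49.7 CPM in cirrhosis and 80.0 CPM in control, a log2 ratio of -0.69, and Gzmb had 142 CPM and 223 CPM, a log2 ratio of -0.65. Gzmk, another granzyme, was higher in cirrhosis, with 58 UMIs and 12 UMIs (31.5 CPM and 7.26 CPM). Zeb2, a transcription factor also expressed by myeloid and endothelial cells, had 80.0 CPM and 15.1 CPM in all T cells and 28.5 CPM and 11.8 CPM in the stricter set. In NK-type barcodes the median of the list was -0.54, beside -0.04 over all features.

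Of 15 listed cytokines 11 were measured, 5 were higher in cirrhosis and 6 lower, 1 of them 2-fold higher and 3 2-fold lower, with a median of -0.14. For this and the next 2 lists, the shares over all features were 8.86% 2-fold higher and 2.52% 2-fold lower. Tnfsf11, the cytokine RANKL, had 30.5 CPM in cirrhosis and 10.3 CPM in control. Ifng, the gene of interferon-gamma, had 62 UMIs in cirrhosis and 542 in control (33.7 CPM and 328 CPM), a log2 ratio of -3.28 (interval -3.68 to -2.90). It was in 42 T cells of cirrhosis (20.8%) and 123 of control (56.9%). Xcl1 had 145 CPM and 839 CPM and was in 27.2% and 77.3% of T cells. Without barcodes holding NK receptor UMIs, the log2 ratio was -3.40 for Ifng and -3.81 for Xcl1. Cd40lg, the helper ligand for B cells, had 21.2 CPM and 94.3 CPM. Il4, which NKT cells release, had 4 UMIs in 4 T cells of cirrhosis and 58 UMIs in 42 of control. Of 16 innate-like and NKT genes, 13 were measured, 6 were 2-fold lower, 1 was 2-fold higher and the median was -0.82 (stricter set -0.91). Il2rb, the beta chain of the interleukin 2 and 15 receptors, had 249 CPM and 824 CPM, and Cd160, an inhibitory and costimulatory receptor, had 62.0 CPM and 320 CPM. Klra9, a Ly49 receptor whose near-identical relatives can share its reads, had 17.9 CPM and 125 CPM, a log2 ratio of -2.80 that became -1.004 without barcodes holding NK receptor UMIs. Zbtb16, the transcription factor PLZF of innate-like lineages, was in 14.4% and 24.1% of T cells. Of the 15 tissue residency genes, 11 were measured and 5 were 2-fold lower, among them Bhlhe40 with 88.7 CPM and 285 CPM and Vps37b with 147 CPM and 406 CPM. Itgae, the CD103 integrin chain of epithelial T cells, had 57 UMIs in cirrhosis and 10 in control.

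**Figure D3:**
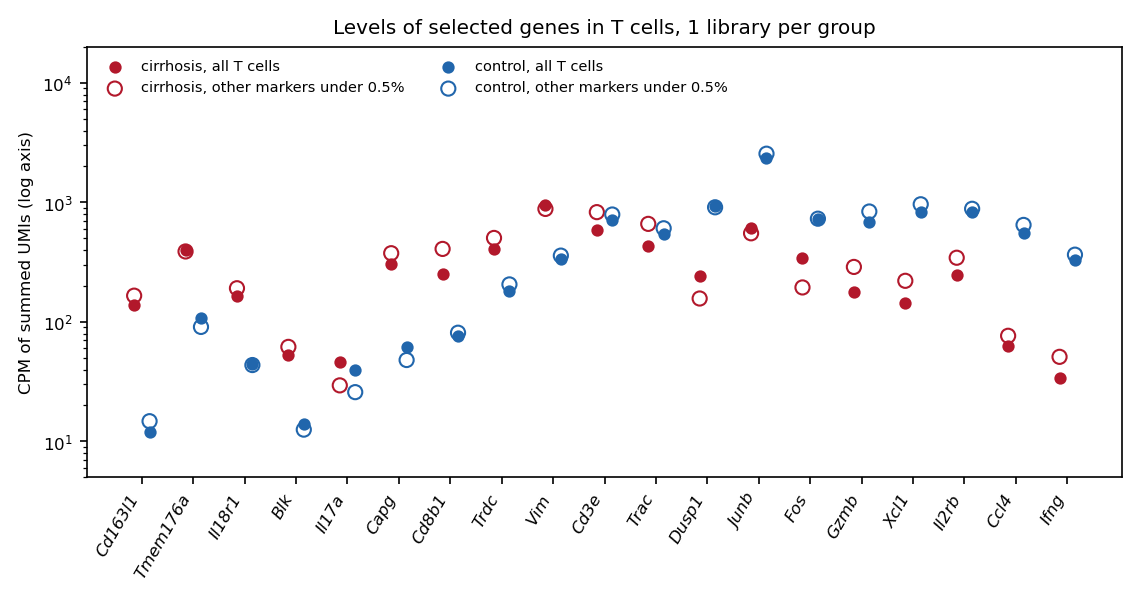
CPM of UMIs summed over T cells (y axis, log scale) for selected genes, red for cirrhosis and blue for control, with filled points for all T cells and open circles for the stricter set, 1 library per group. Cd163l1 stands at 139 CPM in cirrhosis and 12.1 CPM in control, and Ifng at 33.7 CPM and 328 CPM, while Cd3e and Trac lie close together.

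Immediate-early genes, which cells transcribe within minutes of a stimulus and also during tissue dissociation, were lower in cirrhosis. Of 24 listed genes 23 were measured, 9 were 2-fold lower and none was 2-fold higher, with a median log2 ratio of -0.72. In the stricter set 13 of 21 were 2-fold lower and the median was -1.34. Over all features, 2.52% were 2-fold lower in all T cells and 2.73% in the stricter set. Junb, a subunit of the AP-1 factor, had 608 CPM in cirrhosis and 2351 CPM in control. Dusp1, a phosphatase that turns off MAP kinases, had 241 CPM and 929 CPM, and was in 54.5% and 92.6% of T cells. Dusp2, its relative in lymphocytes, had 179 CPM and 715 CPM. Tnfaip3, which restrains NF-kB, had 114 CPM and 345 CPM. Zfp36l1 ran the other way, with 407 CPM and 270 CPM. The list was also lower in cirrhosis in NK-type barcodes, at a median of -0.57, and in B-type barcodes (Cd79a, Cd79b and Ms4a1 at 2 UMIs or more, no CD3), at -0.62. The preparation of the 2 pools cannot be told apart from the treatment. Dusp1 was in 93.2% of sinusoidal endothelial barcodes in cirrhosis and 95.6% in control, and at nearly all barcodes such a share says little about level. Junb was in 61.5% and 79.9% of them, Ppp1r15a in 54.3% and 71.5%, and Gadd45b in 3.06% and 8.70%. Fos, in 84.1% of them in control, was also in a smaller share in cirrhosis. The endothelial barcodes of cirrhosis were the deeper ones, at medians of 8945 and 7141 UMIs. Whether endothelium shared the lower level of the list was not tested.

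The 5 genes of this list among the 10 lowest genes of the stricter set are shown by the 250 bases before their RefSeq start sites on GRCm38.p6, 5′ to 3′ on the gene's strand, because they were low together. Capitals mark TGACG, the core of the cyclic AMP response element, and TGANTCA, the AP-1 site, on either strand.
Dusp1 (chr17:26508473-26508722, minus strand): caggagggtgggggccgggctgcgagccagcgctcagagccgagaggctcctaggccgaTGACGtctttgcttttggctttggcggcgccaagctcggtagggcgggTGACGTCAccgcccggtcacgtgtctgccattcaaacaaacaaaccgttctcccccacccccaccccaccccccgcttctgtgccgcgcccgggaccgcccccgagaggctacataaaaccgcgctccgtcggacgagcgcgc
Junb (chr8:84978749-84978998, minus strand): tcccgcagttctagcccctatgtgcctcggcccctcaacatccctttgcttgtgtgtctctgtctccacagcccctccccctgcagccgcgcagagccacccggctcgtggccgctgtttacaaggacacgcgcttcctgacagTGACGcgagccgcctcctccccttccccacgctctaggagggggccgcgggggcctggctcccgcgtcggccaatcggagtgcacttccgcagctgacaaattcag
Dusp2 (chr2:127335909-127336158, plus strand): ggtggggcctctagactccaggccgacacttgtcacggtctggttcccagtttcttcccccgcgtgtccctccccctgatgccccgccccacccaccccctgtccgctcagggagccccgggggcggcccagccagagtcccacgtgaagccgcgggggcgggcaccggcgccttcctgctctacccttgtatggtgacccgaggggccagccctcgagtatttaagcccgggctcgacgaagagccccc
Fos (chr12:85473640-85473889, plus strand): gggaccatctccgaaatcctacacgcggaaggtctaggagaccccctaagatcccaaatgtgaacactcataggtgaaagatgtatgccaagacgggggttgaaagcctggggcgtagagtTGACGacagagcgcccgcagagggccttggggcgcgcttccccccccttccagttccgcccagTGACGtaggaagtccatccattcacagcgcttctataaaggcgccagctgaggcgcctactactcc
Ppp1r15a (chr7:45526269-45526518, minus strand): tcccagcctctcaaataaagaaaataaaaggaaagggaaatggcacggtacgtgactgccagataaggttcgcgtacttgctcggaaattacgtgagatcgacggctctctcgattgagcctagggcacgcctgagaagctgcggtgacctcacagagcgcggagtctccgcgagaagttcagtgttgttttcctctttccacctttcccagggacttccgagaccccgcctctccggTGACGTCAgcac

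TGACG was found in 4 of these 5 windows, with the full element TGACGTCA, which contains it, in those of Dusp1 and Ppp1r15a, and in none of them was TGANTCA found. The Dusp2 window held no match. These 5 genes were picked by their values in these data. Of the 8 searched list genes that were 2-fold lower or more in both sets of T cells, 5 held TGACG, 2 held TGACGTCA and 1 held TGANTCA. Over the 22 list genes whose windows were searched, 11 held TGACG, 3 held TGACGTCA and 2 held TGANTCA. Egr1 and Ier2 of the list were not searched. Of all 32851 windows of this length, 17.8% held TGACG, 1.55% TGACGTCA and 6.75% TGANTCA. Base composition was not matched, and a match of letters is not a binding site.

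The summed immediate-early and cytotoxic lists were lower in cirrhosis in the 4 patterns of T cell for which they were summed. The immediate-early list came to 6906 CPM in cirrhosis and 10092 CPM in control among cells with Cd4 alone, 5412 CPM and 11734 CPM with Cd8 alone, 6854 CPM and 13345 CPM with gamma-delta transcripts alone, and 5774 CPM and 11849 CPM with none of these. The cytotoxic list came to 2742 CPM and 5386 CPM, 7530 CPM and 10254 CPM, 4563 CPM and 8876 CPM, and 5039 CPM and 13262 CPM in the same patterns. In Cd8-only cells the cytotoxic genes did not move as one, with 12 of 20 measured members higher in cirrhosis, 8 lower and a median log2 ratio of 0.12. The type 17 list came to 3900 CPM and 1267 CPM with gamma-delta transcripts alone, 1151 CPM and 956 CPM with Cd4 alone, 732 CPM and 312 CPM with Cd8 alone, and 1565 CPM and 611 CPM with none of these. It came to 4477 CPM and 1302 CPM with gamma-delta transcripts alone and 1171 CPM and 322 CPM with Cd4 alone in the stricter set. Over all Cd4-only cells the type 17 genes were split, with 4 of 8 measured members higher in cirrhosis, 4 lower and a median log2 ratio of 0.11. Among Cd4-only cells, Il2rb had 254 CPM in cirrhosis and 765 CPM in control, and Zbtb16 had 0 and 7 UMIs in 33 and 12 cells. Among Cd8-only cells, Gzmk had 27 UMIs in 10 of 39 cells in cirrhosis and 0 UMIs in 13 cells of control, and Il2rb had 245 CPM and 247 CPM. The Cd4-only and Cd8-only cells of control were 12 and 13, so single cells weigh heavily in these sums.

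**Figure D4:**
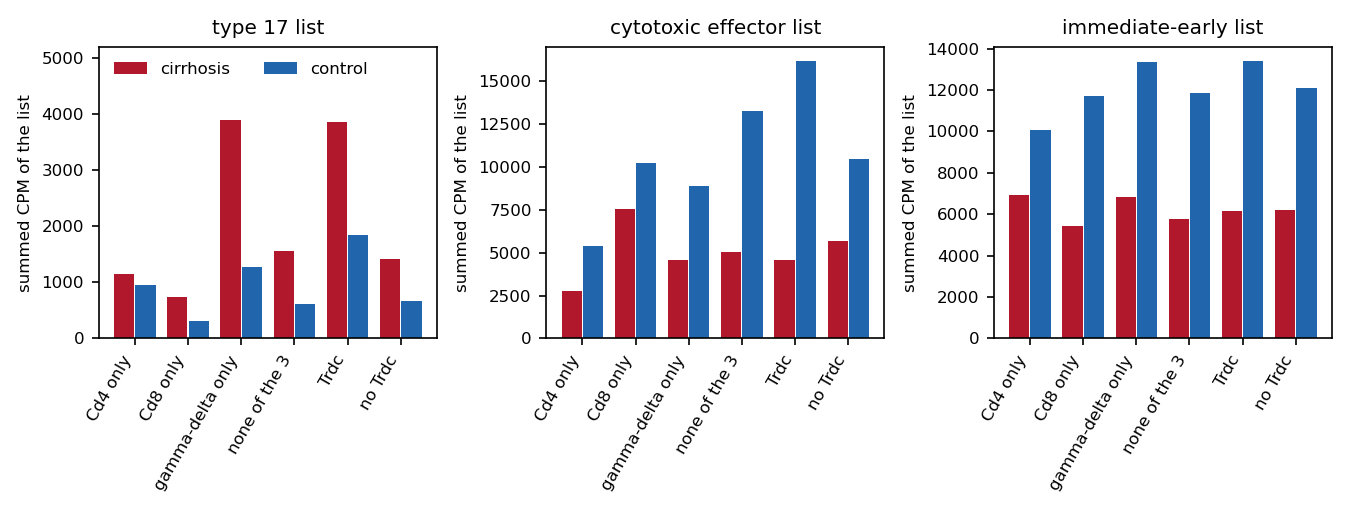
Summed CPM of the type 17, cytotoxic effector and immediate-early lists (y axes, each from 0) in T cells by pattern, red for cirrhosis and blue for control, 1 library per group. Cells with Trdc reach 3864 CPM in cirrhosis and 1846 CPM in control for the type 17 list, and 4598 CPM and 16180 CPM for the cytotoxic list.

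Several genes of the regulatory T cell list and of the naive and recirculating list were higher in cirrhosis. Foxp3, the transcription factor of regulatory T cells, was in 11 T cells of cirrhosis (5.45%, interval 2.75 to 9.53%) and 1 of control (0.463%, interval 0.0117 to 2.55%), against 0.139% and 0.039% of sinusoidal endothelial barcodes. Tnfrsf4 (OX40) had 140 UMIs and 9 UMIs, 76.1 CPM in cirrhosis and 5.44 CPM in control, with a log2 ratio of 3.81 (interval 2.84 to 4.97). Il1rl1, the interleukin 33 receptor, had 50 UMIs in cirrhosis and 0 in control, which on a floor of 3 control counts is a log2 ratio of at least 3.91. Capg, an actin-capping protein, had 306 CPM and 62.3 CPM and was in 61.4% and 14.8% of T cells. It was in far more cells than Foxp3, so it does not mark regulatory T cells alone. Over the list of 15, 9 were measured, 2 were 2-fold higher, Tnfrsf4 and Capg, and the median was 0.75 (stricter set 0.91). Tnfrsf4 was measured through its level in cirrhosis alone. Over all features at that mean 8.86% were 2-fold higher. Foxp3 and Il1rl1 lay below the mean of 20 CPM and were not among the 9. Ccr7, a chemokine receptor for entry into lymph nodes, had 68.5 CPM in cirrhosis and 28.4 CPM in control. It was in 21 T cells (10.4%, interval 6.55 to 15.5%) and 12 (5.56%, interval 2.90 to 9.50%), with intervals that overlapped, against 0.417% and 0.273% of endothelial barcodes. S1pr1, the receptor by which T cells leave tissue, had 109 CPM and 36.9 CPM. Of 15 naive and recirculating genes 14 were measured, 5 were 2-fold higher and none 2-fold lower, with a median of 0.59 (stricter set 0.50). That median was 0.27 without barcodes holding NK receptor UMIs. With the Cd4-only, Cd8-only and gamma-delta-only patterns weighted equally and other T cells left out, the naive median was 0.00519 and the regulatory median 0.27. Without barcodes holding NK receptor UMIs the log2 ratio was 0.48 for Ccr7, 0.90 for S1pr1 and 1.48 for Capg, against 1.27, 1.56 and 2.30 in all T cells.

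**Figure D5:**
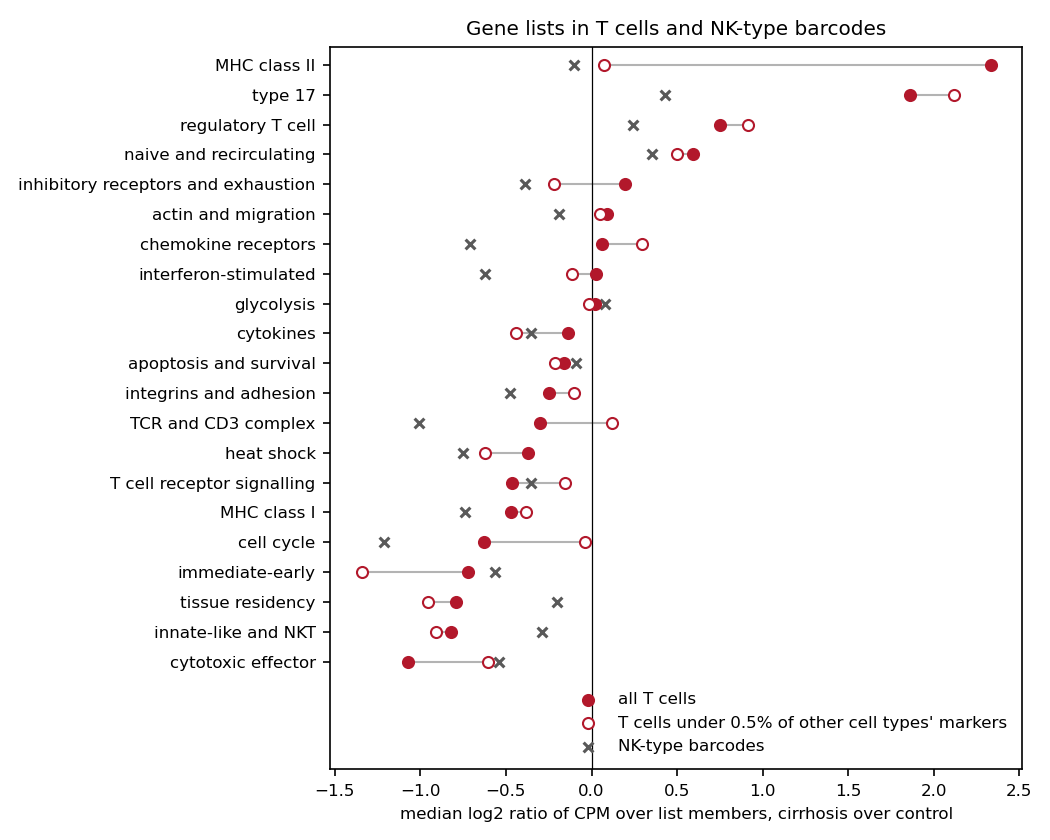
Median log2 ratio of CPM of cirrhosis over control (x axis) for each gene list with at least 5 measured members, with filled points for all T cells, open circles for the stricter set and crosses for NK-type barcodes. The type 17 list stands at 1.86 and 2.12 in T cells, and the MHC class II list at 2.33 in all T cells and 0.07 in the stricter set.

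Other lists moved less, or moved less in the stricter set than in all T cells. All 15 MHC class I genes were lower in cirrhosis in both sets of T cells, with medians of -0.47 and -0.38. H2-K1, a classical class I heavy chain, had 2369 CPM and 3860 CPM, and the near-identical H2-Q4, H2-Q6 and H2-Q7 cannot be separated with certainty. NK-type barcodes had a class I median of -0.74, beside -0.04 over all features, and B-type barcodes one of 0.16, beside 0.43. The MHC class II genes Cd74, H2-Aa, H2-Ab1 and H2-Eb1, which mouse T cells are not known for making, summed to 3133 CPM in cirrhosis and 611 CPM in control, and to 649 CPM and 605 CPM in the stricter set. In control, 70.6% of the UMIs of H2-Aa came from 1 barcode, so the control sums lean on few cells. In the stricter set, the full class II list summed to 700 CPM in cirrhosis and 57.5 CPM in control with Cd4 alone. With Cd8 alone it summed to 379 CPM and 6049 CPM. Which cells made these transcripts was not tested. The cell cycle list had a median of -0.63, but of -0.04 in the stricter set, and Mki67 or Top2a was in 11.9% of T cells in cirrhosis and 7.41% in control. Among interferon-stimulated genes the median was 0.03, with Ifit3 at 96 UMIs in cirrhosis, 35.4% of them in 1 barcode, and 5 in control. Vim, the intermediate filament vimentin, had 946 CPM and 336 CPM, and Lgals1, a galactose-binding lectin, had 798 CPM and 377 CPM. Nr4a3 and Nr4a2, nuclear receptors that T cell receptor signals induce, had 6.53 CPM and 32.7 CPM, and 23.9 CPM and 89.5 CPM. Pdcd1, the inhibitory receptor PD-1, had 33.7 CPM and 13.3 CPM. Cd28, a costimulatory receptor, had 182 CPM and 409 CPM, and Txk, a Tec kinase, 159 CPM and 354 CPM. The median of the heat shock list was -0.37, and Hspa8 had 1104 CPM and 1789 CPM. The glycolysis list had a median of 0.02.

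Over all 3184 features with a mean of 50 CPM, 212 (6.66%) were 2-fold higher in cirrhosis and 103 (3.23%) 2-fold lower. In the stricter set 55 of 2984 (1.84%) were higher and 85 (2.85%) lower. The 10 highest features of all T cells were Igfbp5, Plvap, Ednrb, Ahsg, H2-Eb1, Sparc, Tm4sf1, H2-Ab1, Jam2 and H2-Aa, endothelial, hepatocyte or MHC class II genes, and Plvap had 189 CPM in cirrhosis and 14.5 CPM in control in all T cells, but 6.88 CPM and 4.43 CPM in the stricter set. Of the 10 lowest, Ighg2b, Iglc1, Jchain and Iglc3 had over 99% of their control UMIs in 1 barcode, with 99.2% for Jchain as the least. Ifng, Ccl4, Xcl1, Cd160, Dusp2 and Sytl3, a vesicle trafficking protein, made up the rest. Ranked in the stricter set, which was done after the values were seen, the highest were Capg, Cd8b1, Il18r1, Tmem176a, Tmem176b, Ly6c2, Gzmc, Ctss, Rgs10 and Ramp1. Capg had 376 CPM and 48.0 CPM there, a log2 ratio of 2.97 (interval 2.59 to 3.37). Gzmc was seen in 2.56% and 4.71% of these cells, and 55.4% of its cirrhosis UMIs were in 1 barcode. The lowest were Ccl4, Ifng, Dusp1, Art2b, Junb, Xcl1, Dusp2, Rcbtb2, Fos and Ppp1r15a. Art2b, a surface ADP-ribosyltransferase of T cells, had 33.4 CPM and 180 CPM in the stricter set and was in 16.7% and 62.3% of its cells.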

How the data were processed

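Cells were measured with droplet 3' chemistry (Single Cell 3' v3, per the labels' protocols). The authors deposited 1 table of raw UMI counts per library, with 31057 rows of gene symbols and 1 column per cell barcode, not normalized. Cell Ranger and mm10 are named in the submitters' processing notes, while the sources used here do not give its version, the annotation or any cell filter. The libraries held 8327 cirrhosis and 5642 control barcodes with medians of 8537 and 6864.5 UMIs, and the lowest barcode of each held 500 UMIs, so shallower barcodes were not analysed here. Samples were grouped by the model label.

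Counts of the T cells were summed per library and divided by their total to give CPM. The log2 ratio of cirrhosis over control carries an exact conditional binomial 95% interval, and shares an exact Clopper-Pearson 95% interval. A count of 0 was set to a floor of 3 counts for a bound. A feature counted as changed at 2-fold or more with a mean of 50 CPM, or 20 CPM for list members. The mean was over both libraries, so a feature high in 1 library could pass through that library alone. With 1 library per group no test was made. Named genes were the rule's own genes, the T cell receptor and CD3 genes, up to 4 members of each list with the largest ratio at 20 CPM in either library, and the 10 highest and 10 lowest features at a mean of 100 CPM, without receptor variable segments, mitochondrial, ribosomal and haemoglobin genes and the markers of hepatocytes, sinusoidal endothelium and Kupffer cells. Others in the text, and all genes named within a pattern of T cells, were chosen after their values were seen. Some named genes are not reported here. The members and the lists were chosen with earlier results of these data known.

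Doublets were kept, as the rule has no doublet limit. As an alternative the highest-scoring barcodes against simulated doublets, 0.8% per 1000 barcodes, were left out, which marked 470 cirrhosis and 214 control barcodes, 21 and 9 of them T cells. Other alternatives were 3 CD3 UMIs, endothelial UMIs under 0.1%, 1000 UMIs and 500 genes per barcode, leaving out B cell and hepatocyte transcripts, 2 UMIs per subset gene, thinning to 1000 or 3000 UMIs, other CPM minimums, scaling by the median of ratios, equal weights for cells or patterns, and leaving out barcodes with NK receptors. Equal weights for patterns covered the Cd4-only, Cd8-only and gamma-delta-only cells, without other T cells, and set counts of 0 to the floor. Scaling by the median of ratios shifted log2 ratios by 0.02. The interval calculation was tested on simulated counts with known ratios. These were drawn per gene without cells, so the simulation could not show how intervals hold where UMIs cluster in single barcodes. Python 3.11.15, numpy 2.4.6, scipy 1.17.1, pandas 2.3.3 and scanpy 1.11.5 were used.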

Additional observations from a re-analysis of the deposited data

Results flagged for a closer look

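These values were singled out because the median log2 ratio of a list, cirrhosis over control, had opposite signs in 2 kinds of cell and was at least 0.3 from 0 in both. None of these differences was tested, since each rests on 1 library per group. T cell receptor signalling genes had a median of -0.46 in T cells and 0.39 in B-type barcodes, where the median over all features was 0.08 and 0.43, so the B-type value is not above the general shift. The naive and recirculating list had 0.48 in cells with Cd4 alone, -0.57 in cells with Cd8 alone and 0.59 in cells with gamma-delta transcripts alone. The inhibitory receptor list had 0.96 with Cd4 alone and -1.61 with Cd8 alone. MHC class II genes had 3.43 with Cd4 alone, -4.62 with Cd8 alone and 3.24 with gamma-delta transcripts alone. In the stricter set their sum with gamma-delta transcripts alone was 204 CPM in cirrhosis and 415 CPM in control, against 3276 CPM and 359 CPM in all such cells, so that sign does not hold there. It was 700 CPM and 57.5 CPM there with Cd4 alone, and 379 CPM and 6049 CPM with Cd8 alone. Most H2-Aa UMIs of control T cells came from 1 barcode, so the Cd8-only value may rest on 1 cell. The pattern of that barcode was not looked at. The cell cycle list had 0.69 with Cd4 alone, 0.50 with Cd8 alone and -1.80 with gamma-delta transcripts alone. In T cells with Trdc its median was 0.72, with 11 of 15 measured members higher in cirrhosis and 4 lower. Of the 79 control cells with gamma-delta transcripts alone, 64 held no Trdc, and 62 of those held Trac, so the -1.80 is not a value of gamma-delta cells as such. Interferon-stimulated genes had 0.54 with Cd8 alone and -0.43 with gamma-delta transcripts alone, and 0.08 in T cells with Trdc. The Cd4-only and Cd8-only values rest on 12 and 13 control cells.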

How the results depend on the processing

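The type 17, cytotoxic, innate-like, immediate-early and MHC class II medians kept their sign under all 11 alternatives, in ranges of 0.41 to 2.16, -1.14 to -0.61, -1.05 to -0.25, -1.34 to -0.62 and 0.0749 to 2.50. The stricter set gave a T cell share of 2.04% in cirrhosis, 55 genes 2-fold higher, and medians of -0.61 (cytotoxic), -1.34 (immediate-early) and 0.0749 (MHC class II). Endothelial UMIs under 0.1% gave 107 genes higher and 1.95 for MHC class II, and leaving out doublets gave 137 genes, 2.04 and an innate-like median of -0.98, as did 3 CD3 UMIs (-0.98). No CPM minimum gave 3241 genes higher and 1683 lower, and 100 CPM gave 87 and 56. Cells weighted equally gave 88 genes higher, -0.96 for immediate-early and 1.99 for MHC class II. Without NK receptor barcodes the medians were 1.04 (type 17), -0.69 (cytotoxic), -0.25 (innate-like) and 1.06 (MHC class II). Patterns weighted equally gave 0.41, -0.76, -1.05 and 0.61 for the same lists. By Trdc alone, the gamma-delta pattern was 22.3% in cirrhosis and 6.94% in control, Cd8 alone 25.7% and 12.0%, and Cd4 alone 19.8% and 18.1%, so the non-overlap of the Cd4 intervals was lost. It was also lost when thinned to 1000 UMIs, with Cd4 alone at 4.98% and 3.72%, and gamma-delta alone was then 29.4% and 26.0%. At 2 UMIs Cd4 alone was 12.4% in cirrhosis and 2.78% in control, and thinned to 3000 UMIs 11.9% and 2.88%.

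Among named genes at 2-fold or more, those that changed sign were Ighg2b (0.39 with 3 CD3 UMIs, 0.63 without B cell and hepatocyte transcripts, 1.995 in the stricter set), Iglc3 (4.94, 3.05 and 1.995), and, in the stricter set, Ciita (-0.33), Cenpf (0.0146) and Jam2 (-0.84). Without NK receptor barcodes Cenpf was at 1.996 and Mki67 at 1.28. Named genes under 2-fold that crossed 0 under at least 1 alternative were Birc5 (-0.90, and up to 4.42), Hspb1 (0.50, and down to -0.67), Cd3d, Cd3e, Trac, Trbc1, Gata3, Tpi1, Stab1, Stab2, Clec4g and Dnase1l3. The naive and regulatory medians ranged from 0.00519 to 0.82 and from 0.27 to 1.03. Beyond what these alternatives change by construction, the cause was not tested. No paired analysis was possible because each group has 1 library. A single library per group, 12 and 13 control cells with Cd4 or Cd8 alone, and few UMIs per cytokine gene limit what these values can show.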
